A study of Mus musculus with 9 samples.

Results

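The chemokines and receptors of the CXCR3 and CXCR6 axes were measured in the livers of mice given an agonistic antibody against CD40. The 5 genes Cxcl9, Cxcl10, Cxcr3, Cxcl16 and Cxcr6 were taken by name from the 24341 genes of the deposited table, and all 5 were present. RNA came from bulk liver of 9 wild-type C57BL/6 mice, collected 48 h after treatment. The anti-CD40 group held 3 mice (numbered 2, 5 and 9) that received the agonist FGK45, and the control group held 6 mice (numbered 3, 4, 7, 8, 11 and 12) that received PBS, a saline buffer. The study's methods give an age of 8 to 12 weeks for its mice unless otherwise stated, and say that a minority of anti-CD40 mice were left out of the study where blood B cells had not fallen a day after injection. The labels name no transgene, and the antibody was given to the whole animal. The study refers to a supplementary table for the antibody dose, which was not used here.

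CXCL9 and CXCL10 are small secreted proteins that interferons, above all interferon gamma, induce in macrophages, endothelium and hepatocytes. They attract activated T cells, NK cells and other lymphocytes through the G protein coupled receptor CXCR3. CXCL16 is made as a transmembrane protein on macrophages, dendritic cells and liver sinusoidal endothelium, and the proteases ADAM10 and ADAM17 release it as a soluble chemokine. Its receptor CXCR6 is carried by NKT cells, type 1 innate lymphoid cells (ILC1) and tissue-resident T cells, which are abundant in the liver.

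Cxcl9 and Cxcl10 lie next to each other on the minus strand of chromosome 5 (mm10, GENCODE annotation), Cxcl9 from 92321347 to 92328079 and Cxcl10 from 92346638 to 92348889. The 250 bases before each start site are shown because these neighbours were the members with the largest fold changes and differed in size of change. They were taken from RefSeq on GRCm38.p6 and are written 5′ to 3′ along the gene's own strand. Capitals mark matches to the motifs searched and an 11-base run that both windows hold.
Cxcl9, chr5:92328080-92328329, minus strand: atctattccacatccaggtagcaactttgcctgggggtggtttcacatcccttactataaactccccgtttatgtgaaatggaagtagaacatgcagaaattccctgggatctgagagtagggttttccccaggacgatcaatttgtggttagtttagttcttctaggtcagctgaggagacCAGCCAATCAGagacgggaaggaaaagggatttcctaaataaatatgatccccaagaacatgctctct
Cxcl10, chr5:92348890-92349139, minus strand: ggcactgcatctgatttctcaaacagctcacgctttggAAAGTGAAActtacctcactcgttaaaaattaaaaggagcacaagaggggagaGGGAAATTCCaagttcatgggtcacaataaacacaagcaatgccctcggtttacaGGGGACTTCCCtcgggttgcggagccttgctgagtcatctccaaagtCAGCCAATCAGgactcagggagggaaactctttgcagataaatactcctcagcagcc
The shared run CAGCCAATCAG starts at position -68 of Cxcl9 and -57 of Cxcl10, counted from the start site, and it was looked for after the values had been seen. It holds CCAAT, the core of the box bound by the factor NF-Y, and occurred on either strand in 0.755% of 32851 RefSeq windows of the same length. The 3 motifs below were searched on both strands, with overlapping matches allowed. They were GAS, the interferon gamma activated site (TTCNNNGAA, in 7.02% of all windows), the core of ISRE, the interferon-stimulated response element (AAANNGAAA, in 9.37%), and the kappaB site of NF-kappaB (in 7.25%). The Cxcl10 window held 1 ISRE core, from position -212 to -204, and 3 kappaB matches, of which 1 lay from -159 to -150 and the other two overlapped each other between -104 and -94. The windows of Cxcl9, Cxcr3 and Cxcr6 held none of these 3 strings within 250 bases. Sites that differ from the strings by a letter, sites of other forms and sites outside the windows were not searched. A window for Cxcl16 was not among the sequences used here. These matches describe the letters of the windows, and binding was not measured.

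Expression was read as the authors' FPKM, read numbers scaled to transcript length and to the depth of the library, from libraries that sequence only the 3′ end of each transcript. A library of this kind gives about 1 read per transcript whatever its length, so FPKM are compared here between mice for a gene and not between genes. The total read count of each mouse was not part of the table, but its depth relative to the others could be read from the steps between low values, and it ran from 0.870 to 1.13. Differences are given as log2(FPKM + 0.1), tested with limma over 13807 genes and adjusted by the Benjamini-Hochberg method, with a call at an adjusted p under 0.05. The treatment was followed by broad change, since 45.1% of the genes tested were called, 23.5% as higher and 21.7% as lower, and in 42.4% the groups did not overlap in either direction, 22.7% with every anti-CD40 mouse above every control mouse. Nothing in the labels named a batch. Whether the mice of a group shared a cage or a day of treatment was not stated, so the p-values measure the spread between these 9 mice.

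All 5 members were called higher after anti-CD40, and in all 5 every anti-CD40 mouse was above every control mouse, against the 23.5% and 22.7% of all genes just given. Measured as the fold of group means, Cxcl9 rose 42.8-fold, Cxcl10 7.68-fold (12.5-fold without control mouse 4) and Cxcl16 5.20-fold, whereas Cxcr3 rose 2.50-fold and Cxcr6 1.65-fold. Each member taken alone gave an exact 2-sided permutation p of 0.0238, the smallest that 3 mice against 6 allow. In bulk tissue, more cells of a type and more RNA per cell cannot be told apart. Cxcr6 was the member whose call depended on single mice, and without anti-CD40 mouse 2 or mouse 5 the count of members called was 4.

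**Figure D1:**
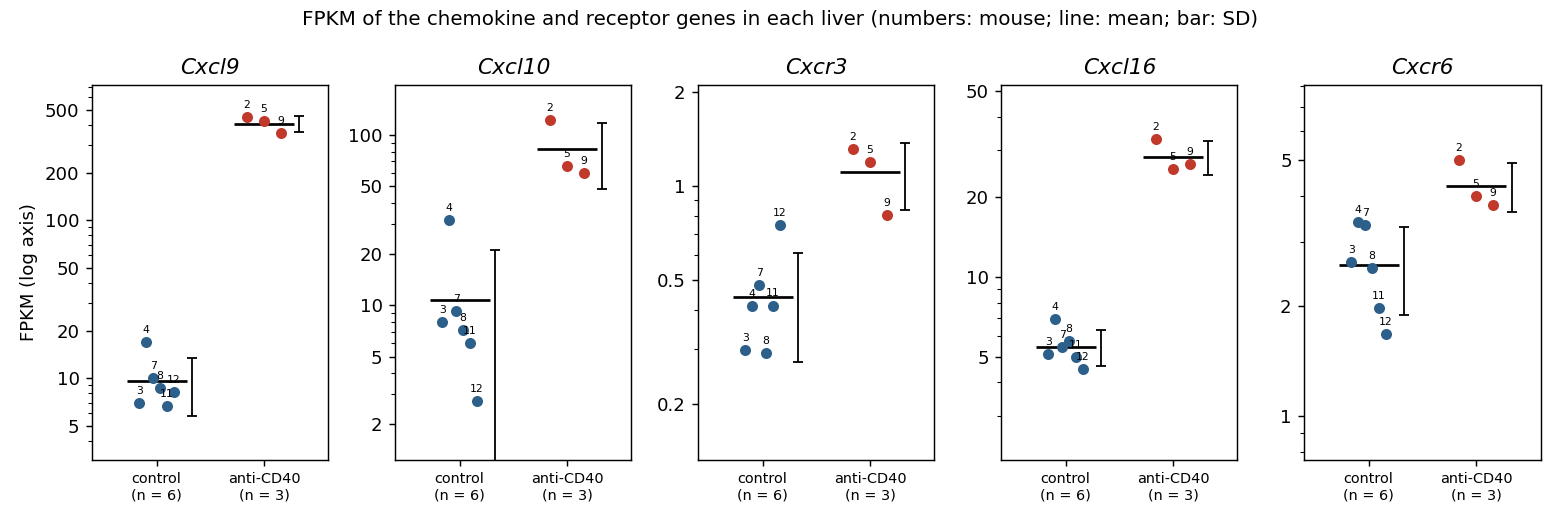
FPKM of the 5 members in each mouse on log axes, with a panel for each gene, points for mice, and a bar for the group mean with its SD (3 anti-CD40 mice and 6 control mice). In every panel the lowest anti-CD40 point lies above the highest control point, by a wide margin for Cxcl9 (356 against 17.0 FPKM) and a narrow one for Cxcr3 (0.807 against 0.751 FPKM). The lower SD bar of the Cxcl10 controls runs to the edge of the log axis because the SD is nearly as large as the mean.

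Cxcl9, the interferon gamma induced ligand of CXCR3, had the largest change among the members. Its level was 449, 422 and 356 FPKM in anti-CD40 mice 2, 5 and 9, and ran from 6.68 to 17.0 FPKM with a median of 8.40 in the controls. The lowest anti-CD40 mouse was thus 21.0 times the highest control. The group means were 409 ± 48.1 (SD, n = 3) and 9.56 ± 3.83 FPKM (SD, n = 6), a difference of 5.47 on the log2 scale (SE 0.26, 95% interval 4.90 to 6.05, limma adjusted p = 3.25e-07). By size of increase Cxcl9 stood at place 30 among the 13807 genes. The spread within groups was small next to this difference, since the highest anti-CD40 mouse was 1.26 times the lowest and the highest control 2.54 times the lowest.

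Cxcl10, the second CXCR3 ligand and its neighbour on the chromosome, also rose, but with a wide spread in both groups. The anti-CD40 mice 2, 5 and 9 had 123, 66.2 and 59.7 FPKM, and the controls ran from 2.73 to 31.7 FPKM with a median of 7.62. Control mouse 4 held the 31.7, well above the 9.22 FPKM of the next control, and it was also the highest control for Cxcl9, Cxcl16 and Cxcr6. The means of 83.0 ± 34.9 (SD, n = 3) and 10.8 ± 10.5 FPKM (SD, n = 6) differed by 3.26 on the log2 scale (SE 0.59, 95% interval 1.95 to 4.58, limma adjusted p = 0.00123). Without control mouse 4 the difference was 3.65. This mouse also had the most haemoglobin and other erythroid RNA, with a summed level of 50524 FPKM over the erythroid markers against 7493 to 13468 in the other controls, and 154 FPKM over the neutrophil markers against 18.1 to 81.3. The part of blood in its chemokine levels was not tested.

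Cxcl11 encodes the third CXCR3 ligand, which C57BL/6 mice are known to carry as an allele that makes no functional protein. Its RNA was nonetheless measurable and rose, with 5.13, 3.48 and 3.06 FPKM in anti-CD40 mice against 0.997 to 1.99 in controls (median 1.51). The difference was 1.33 on the log2 scale (SE 0.24, limma adjusted p = 0.00108). Dpp4 encodes the peptidase that trims CXCR3 ligands and weakens their activity at the receptor. It fell in all anti-CD40 mice, to 8.18, 8.67 and 7.85 FPKM from a control range of 14.3 to 18.4, a log2 difference of -0.98 (SE 0.12, limma adjusted p = 8.12e-05). Among the other partners listed for these axes, Pf4, a platelet chemokine that can bind CXCR3, gave 19.1 against 17.5 FPKM (adjusted p = 0.592), and its 95% interval of -0.54 to 1.05 on the log2 scale leaves room for a change in either direction. The scavenging receptors Ackr2 and Ackr3 differed by 0.35 and 0.86 on the log2 scale and did not pass (adjusted p = 0.329 and 0.108). Both were called higher when the acute phase Saa genes were left out and the mice rescaled. Of the 7 partners, counting both CXCL16 proteases, 3 rose, 1 fell and 3 did not pass the test, beside 45.1% of all genes called.

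Cxcr3, the receptor for these ligands, was expressed at a low level and rose modestly. Mice 2, 5 and 9 of the anti-CD40 group had 1.32, 1.20 and 0.807 FPKM, against 0.292 to 0.751 in controls (median 0.414). These levels rest on few reads, since the steps of the FPKM scale place them at 41, 35 and 22 reads after anti-CD40 and at 7 to 19 reads in controls. The means of 1.11 ± 0.267 (SD, n = 3) and 0.442 ± 0.168 FPKM (SD, n = 6) differed by 1.18 on the log2 scale (SE 0.26, 95% interval 0.59 to 1.77, limma adjusted p = 0.00438). At this low level the size depended on the scale, with 0.55 at a pseudocount of 1 FPKM, 0.80 after quantile normalization and 1.505 when the acute phase Saa genes were left out and the mice rescaled, and the call held in each. The groups came close to touching, with the lowest anti-CD40 mouse (mouse 9) only 1.07 times the highest control (mouse 12). Cxcr3 lies on chromosome X from 101731535 to 101734269 on the minus strand, and no other annotated gene overlaps it.

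Cxcl16, the membrane-bound ligand of CXCR6, rose with the smallest standard error of all members. Its levels were 33.03, 25.5 and 26.5 FPKM in anti-CD40 mice and 4.50 to 6.91 FPKM in controls (median 5.28), so that the lowest anti-CD40 mouse was 3.69 times the highest control. The means were 28.3 ± 4.09 (SD, n = 3) and 5.45 ± 0.830 FPKM (SD, n = 6), a log2 difference of 2.36 (SE 0.15, 95% interval 2.03 to 2.69, limma adjusted p = 1.66e-06). The coefficients of variation were 14.4% and 15.2%. Adam17 and Adam10, whose proteases release CXCL16 from the membrane, were also called higher, Adam10 less firmly. Adam17 had 34.0 against 19.5 FPKM (log2 difference 0.79, limma adjusted p = 6.78e-04), and Adam10 had 5.74 against 3.26 FPKM (0.84, adjusted p = 0.0177). The Adam10 call was lost without anti-CD40 mouse 2 (0.72, adjusted p = 0.0850) and when genes of low level were kept in the test (adjusted p = 0.0551).

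Cxcr6, the receptor of CXCL16, showed the smallest change of the 5, except at a pseudocount of 1 FPKM (0.57 against 0.55 for Cxcr3). Its level was 5.02, 4.01 and 3.78 FPKM in anti-CD40 mice 2, 5 and 9, and ran from 1.68 to 3.39 FPKM in controls with a median of 2.59. In reads this was 188, 141 and 124 against 51 to 118. The means of 4.27 ± 0.662 (SD, n = 3) and 2.59 ± 0.696 FPKM (SD, n = 6) differed by 0.73 on the log2 scale (SE 0.23, 95% interval 0.23 to 1.23, limma adjusted p = 0.0230). The groups did not overlap, but the lowest anti-CD40 mouse was only 1.12 times the highest control. This call was the least stable one, and it was lost without anti-CD40 mouse 2 (0.61, adjusted p = 0.108), without anti-CD40 mouse 5 (0.77, adjusted p = 0.0566), after quantile normalization (0.56, adjusted p = 0.0511) and when genes of low level were kept in the test (0.73, adjusted p = 0.0621). The difference was larger when the Saa genes were left out and the mice rescaled (1.09, limma adjusted p = 0.00371).

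Several of these genes share their locus with a gene on the other strand, and whether strand was used in counting was not given in the sources used here. The 3 genes Art3, Cxcl10 and Cxcl11 are listed at 1 common position, and some exons of Art3 and Cxcl10 overlap. Art3 itself had 1.19 FPKM in both groups (log2 difference 0.03, limma adjusted p = 0.911). Cxcr6 lies at 123806475 to 123811760 on chromosome 9, within Fyco1 on the opposite strand but clear of its exons, and Fyco1 gave 2.01 against 2.44 FPKM (adjusted p = 0.122). The 5′ end of Cxcl16, at 70453983 to 70459984 on chromosome 11, overlaps that of Zmynd15, which was low in both groups (0.238 against 0.0805 FPKM, adjusted p = 0.0345). Where strand is not used, reads that fall in overlapping exons of the 2 genes of such a pair cannot be told apart.

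**Figure D2:**
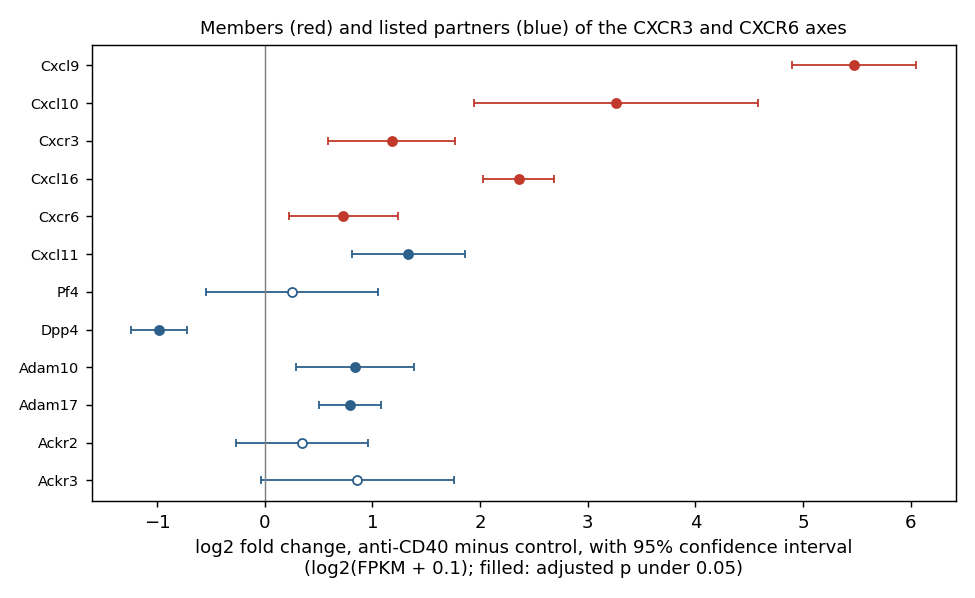
Differences between anti-CD40 and control livers on the log2(FPKM + 0.1) scale for the 5 members and the listed partners of both axes, with 95% intervals from limma (3 against 6 mice). Filled points passed at an adjusted p under 0.05 and open points did not. Cxcl9 lies farthest to the right (5.47), Cxcr6 is the member nearest to 0 (0.73), and Dpp4 lies to the left (-0.98).

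Within each liver the balance between the members changed. These comparisons use the log2 ratio of a pair in each mouse, which removes any factor common to the whole library, and 9 ratios were tested by exact 2-sided permutation with adjustment over the 9. The ratio of Cxcl9 to Cxcl10 came to 1.87, 2.67 and 2.57 in mice 2, 5 and 9 of the anti-CD40 group and lay between -0.90 and 1.55 in controls, a difference of 2.21 or 4.63-fold (exact p = 0.0238, adjusted p = 0.0429). Cxcl9 thus gained on its neighbour in all 3 anti-CD40 mice. Its ratio to Cxcl16 rose by 3.11 and that to Cxcr3 by 4.29, both without overlap (exact p = 0.0238, adjusted p = 0.0429 for each). The ratio of Cxcl16 to its receptor Cxcr6 was 2.64 to 2.78 in anti-CD40 mice and 0.69 to 1.37 in controls, a difference of 1.63 or 3.09-fold (exact p = 0.0238, adjusted p = 0.0429).

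The remaining member ratios were less clear. The ratio of Cxcl10 to Cxcr3 was higher by 2.08, but control mouse 4 (5.95) lay inside the anti-CD40 range of 5.68 to 6.44 (exact p = 0.0476, adjusted p = 0.0714). Cxcl10 to Cxcl16 differed by 0.90 with overlap (exact p = 0.143, adjusted p = 0.184), and without control mouse 4 by 1.23 (exact p = 0.0357). Cxcr3 to Cxcr6 differed by 0.45 with an SE of 0.31 (exact p = 0.310), so an unequal change of the receptors was not detectable with these mice.

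**Figure D3:**
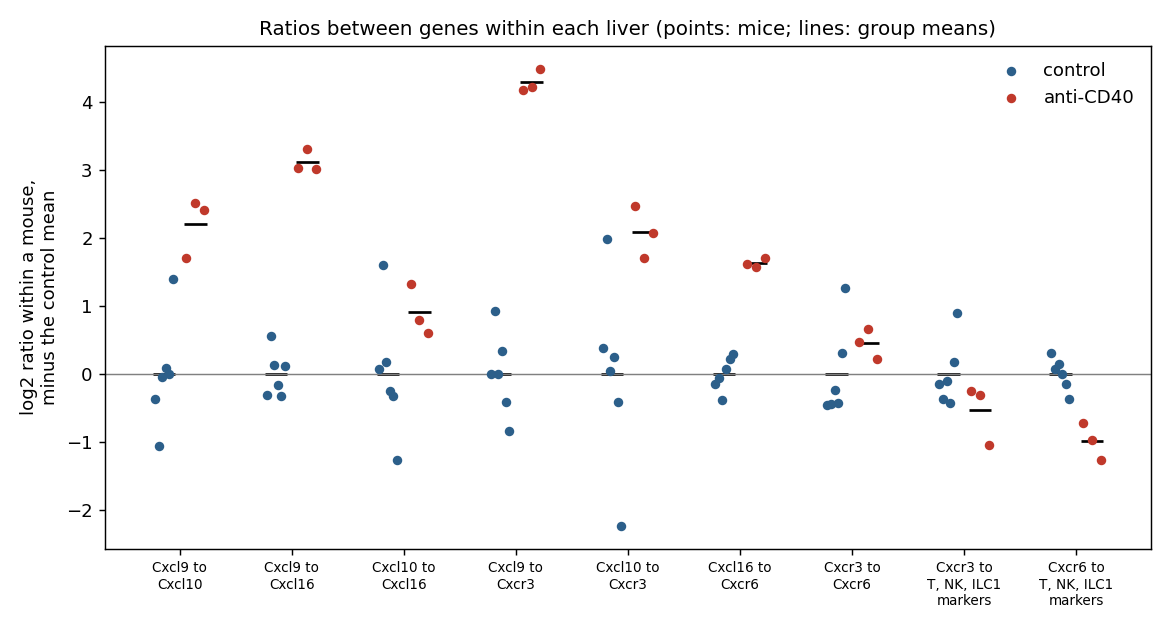
Log2 ratios of member pairs, and of each receptor to the mean of T cell, NK and ILC1 markers, in each mouse. The control mean of each ratio was subtracted (points are mice, lines are group means, 3 anti-CD40 and 6 control mice). Anti-CD40 points lie above all control points for Cxcl9 to Cxcl10, Cxcl9 to Cxcl16, Cxcl9 to Cxcr3 and Cxcl16 to Cxcr6, and below all of them for Cxcr6 to the markers.

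CXCR3 and CXCR6 are carried by lymphocytes, so their levels were set beside those of T cell, NK and ILC1 markers. The marker counts stand beside 23.5% of all genes called higher and 21.7% called lower. The T cell list rose in 13 of 14 members, with a median of 1.45 on the log2 scale, among them the receptor chains Cd3d (1.30) and Cd8a (2.63). The control mean of Cd8a was 0.0946 FPKM, near the pseudocount, so the size of its difference depends on it. Cd4 gave 0.49 and did not pass (limma adjusted p = 0.0900). Without anti-CD40 mouse 2, the T cell count was 8. The NK and ILC1 list rose in 12 of 12 members tested, with a median of 2.02, from the killing enzyme Gzma (4.47) to the integrin Itga1 (0.68), an ILC1 marker. Summed over the list, T cell markers came to 18.1 to 21.0 FPKM in anti-CD40 mice and 4.35 to 7.47 in controls, and NK and ILC1 markers to 108 to 138 and 13.8 to 28.6 FPKM. Such sums are compared between mice only and are led by the genes with the highest FPKM. Gzma alone held 57.7 to 79.6 FPKM of the NK and ILC1 sum in anti-CD40 mice.

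The receptors were then ranked among these markers. Of the 26 markers tested, 18 had a larger log2 difference than Cxcr3 and 23 a larger one than Cxcr6, and the median over the markers was 1.78. These ranks hold for the pseudocount of 0.1 FPKM, which is near the control level of low markers such as Cd8a (mean 0.0946 FPKM). At a pseudocount of 1 FPKM the receptors' own differences were 0.55 for Cxcr3 and 0.57 for Cxcr6. The ratio of Cxcr6 to the marker mean came to 1.43, 1.18 and 0.88 in mice 2, 5 and 9 of the anti-CD40 group, against 1.78 to 2.45 in controls, lower in 3 of 3 mice by 0.99 on the log2 scale, a ratio of 0.504 (difference -0.99, exact p = 0.0238, adjusted p = 0.0429). With a pseudocount of 1 FPKM this difference was -0.39 and the groups overlapped (exact p = 0.0714). For Cxcr3 the difference was -0.54 with overlap (exact p = 0.167, adjusted p = 0.188).

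**Figure D4:**
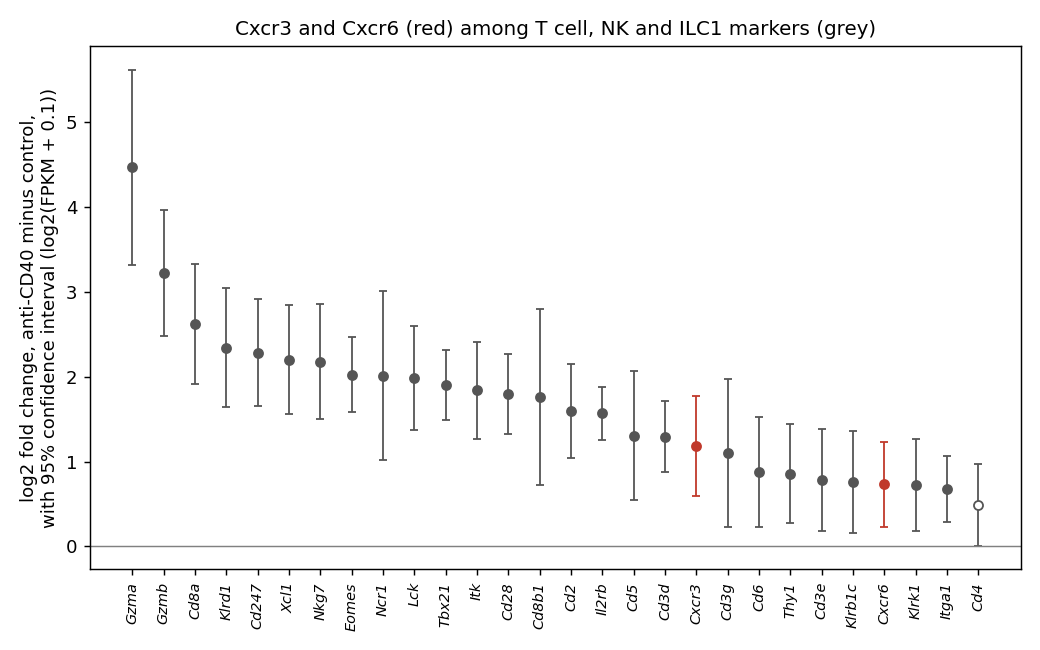
Log2 differences between anti-CD40 and control livers for Cxcr3 and Cxcr6 beside 26 markers of T cells, NK cells and ILC1, ordered by size, with 95% intervals from limma (3 against 6 mice). Open points did not pass. Cxcr3 (1.18) and Cxcr6 (0.73) lie under the marker median of 1.78, with 18 and 23 of the 26 markers above them.

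Cells that can make the ligands also changed in their markers. Here too, 23.5% of all genes called higher and 21.7% called lower are the shares to set beside the counts. The monocyte and macrophage list rose in 7 of 9 members and fell in 1. Ly6c2, a surface marker of inflammatory monocytes, had 58.5 against 1.23 FPKM. Itgax, an integrin of dendritic cells and macrophages, had 6.34 against 0.261 FPKM. The member that fell was Adgre1 (1.75 against 5.36 FPKM, limma adjusted p = 0.00209), and Csf1r did not pass (4.99 against 8.12 FPKM, adjusted p = 0.0837). All 7 Kupffer cell markers fell, with a summed level of 39.1 to 50.7 FPKM in anti-CD40 mice against 290 to 466 in controls. Cd5l alone held 182 to 317 FPKM of the control sums. Clec4f, a Kupffer cell lectin, was near 0 in all 3 anti-CD40 mice (0.01 to 0.218 FPKM). Sinusoidal endothelial markers went both ways, with 3 of 9 higher and 4 lower, and their sums overlapped (99.5 to 106 against 105 to 132 FPKM). Their 7 calls fell to 4 when genes of low level were kept in the test, and likewise without anti-CD40 mouse 2, 5 or 9. Hepatocyte markers, which define the tissue and were abundant in every mouse, fell in 5 of 7 and rose in 2. The part of any of these cells in the ligand levels was not tested. Anti-CD40 mouse 5 also held 1296 FPKM over the pancreatic acinar markers against 28.2 to 196 in the other mice, and its levels of the 5 members lay inside the range of the other anti-CD40 mice except for Cxcl16, where it was the lowest.

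Regulators known to act upstream of the CXCR3 ligands were also read. Of 20 listed genes tested, 13 were called higher and 2 lower, beside 23.5% and 21.7% of all genes, with a median of 0.74 on the log2 scale. Ifngr2, a chain of the interferon gamma receptor, had 15.0 against 5.55 FPKM (log2 difference 1.43, limma adjusted p = 1.66e-05). The cytokines Tnf (3.90) and Il12b, the p40 chain of IL-12 (3.82), rose from control means near the pseudocount, so the size of their differences depends on it (2.04 and 1.74 at a pseudocount of 1 FPKM), and the interferon factors Irf8 and Irf7 rose by 2.23 and 2.12. Irf1, an interferon-induced factor that acts on the Cxcl9 and Cxcl10 genes, gave 48.6 against 39.4 FPKM and did not pass (0.33, adjusted p = 0.179). Irf3 (3.89 against 7.98 FPKM) and the cytokine Il18 (59.7 against 124 FPKM) fell. Only 1 listed gene was called lower after quantile normalization, with the Saa genes left out and the mice rescaled, or without anti-CD40 mouse 5. Ifng, the gene for interferon gamma itself, was under the level needed for testing.

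Genes that carry the signal inside a cell once a chemokine receptor is engaged were mostly called higher. Of 19 tested, 17 were called higher and none lower, against 23.5% and 21.7% of all genes, with a median of 1.72 on the log2 scale. They included Rac2 (2.62) and its activator Dock2 (1.84), which drive migration of blood cells, the phosphoinositide 3-kinase subunits Pik3r5 (2.57) and Pik3cg (1.73), and the kinase Prkcd (2.16). Control means of Dock2, Pik3r5 and Pik3cg were close to the pseudocount (0.266, 0.177 and 0.157 FPKM), so the size of their differences depends on it. The G protein subunit Gnai2, through which chemokine receptors act, rose by 0.71 (limma adjusted p = 0.0124), while Gnai3 (0.03) and Plcb3 (0.32) did not pass. Most of these genes are expressed across blood leukocytes, and most of the listed leukocyte markers rose in these livers. The part of leukocyte number in these differences was not tested.

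Other listed chemokine genes give the setting for the 5 genes. The lists do not cover the whole family, and they leave out Ccr2, which rose by 2.80 (limma adjusted p = 1.41e-05). Among the 22 other listed ligands tested, 14 were called higher and 3 lower. Among the 11 other listed receptors 6 were higher and none lower, again beside 23.5% and 21.7% of all genes. By log2 difference Cxcl9 was exceeded by 1 of the 24 other listed ligands, Cxcl10 by 10 and Cxcl16 by 13. The ligand above Cxcl9 was Ccl20, which draws CCR6-bearing cells and was listed at the floor of 0.01 FPKM in all controls, so that its place depends on the pseudocount, with 27.6, 21.2 and 14.3 FPKM in anti-CD40 mice. Its receptor Ccr6 had the largest log2 difference of the listed receptors (7.45 against 0.127 FPKM, log2 difference 5.18, limma adjusted p = 3.51e-06). The size of this difference also depends on the pseudocount, with 2.90 to 6.24 over the alternative settings. Ccl5, a T cell and NK cell product that also attracts lymphocytes, rose from 11.5 to 160 FPKM (3.85, adjusted p = 3.93e-06).

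Among the other CXC chemokines, the neutrophil attractants Cxcl1 (12.1 to 135 FPKM), Cxcl2 (0.504 to 15.4 FPKM) and Cxcl5 (0.0990 to 2.15 FPKM) rose, and Cxcl3 was listed at the floor in every control and at 0.381 to 0.709 FPKM in anti-CD40 mice. Their receptor Cxcr2 rose from 0.0556 to 2.01 FPKM. Cxcl12, the homeostatic ligand of CXCR4, moved the other way, from 172 to 88.8 FPKM (log2 difference -0.95, limma adjusted p = 2.11e-05), while Cxcr4 rose from 2.76 to 24.1 FPKM (3.15, adjusted p = 4.71e-05). Ccl27a (-2.11) and Ccl25 (-0.97) were the other listed ligands that fell. Ccl22 (4.48), a ligand of CCR4 made by dendritic cells, rose, as did the receptors Ccr7 (3.46), which guides cells to lymph nodes, Cx3cr1 (2.98), found on monocytes and NK cells, and Cxcr5 (0.96), found on B cells. Ccl22 rose from a control mean of 0.0461 FPKM, and its difference ran from 1.96 to 6.18 over the alternative settings. Ccr9, a gut homing receptor, did not pass (0.37, adjusted p = 0.290). With 7 and 5 receptors of 12 above them, Cxcr6 and Cxcr3 lay in the middle of the listed receptors by log2 difference at the pseudocount of 0.1 FPKM.

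**Figure D5:**
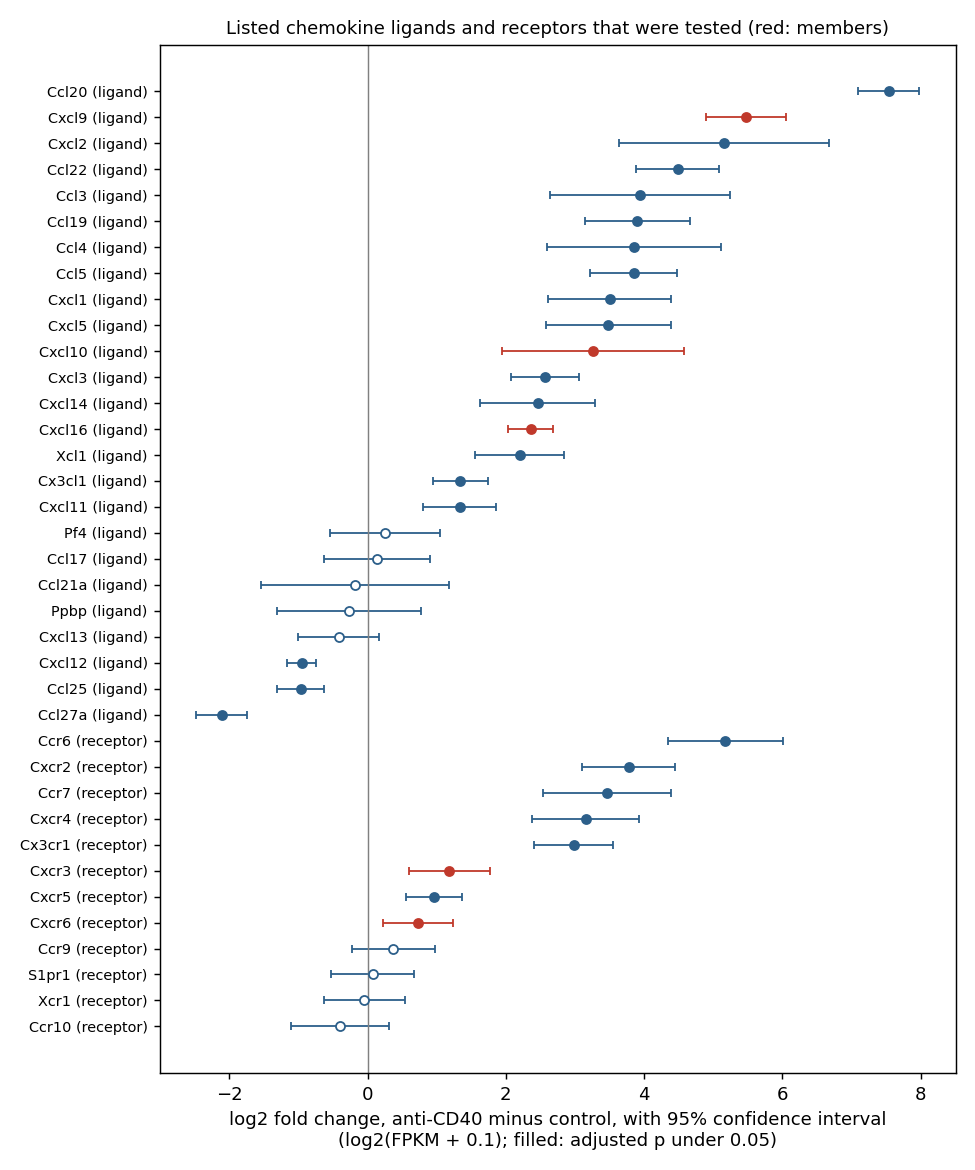
Log2 differences between anti-CD40 and control livers for listed chemokine ligands and receptors that were tested, with the 5 members marked, and 95% intervals from limma (3 against 6 mice). Open points did not pass. Cxcl9 (5.47) is second among the ligands after Ccl20, whose controls are all at the floor, and Cxcr3 (1.18) and Cxcr6 (0.73) lie mid-order among the receptors.

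The genes whose pattern over the 9 mice was nearest to each member were found by the root mean square (RMS) of the log2 difference between centred profiles, among 10151 genes with a mean of at least 1 FPKM. For Cxcl9 they were Gpnmb (0.223), a glycoprotein of macrophages, the matrix proteoglycan Vcan (0.281) and Cst7 (0.293), a protease inhibitor of cytotoxic and myeloid cells. For Cxcl10 the nearest were Gipc2 (0.403), Cd274 (0.426), which encodes PD-L1, and the guanylate-binding protein gene Gbp11 (0.451), so its nearest genes were farther off than those of the other members. Cxcl16 was nearest to Fam111a, Fam65b and Adh7 (0.128 to 0.131), Cxcr3 to Fes, Cebpd and Dnajc10 (0.158 to 0.209), and Cxcr6 to Wls, Parp12 and Ep300 (0.105 to 0.116). The members themselves were farther apart than this, from 0.58 between Cxcr3 and Cxcr6 to 2.75 between Cxcl9 and Cxcr6. The measure follows the size of the change between groups, and it is given as a description.

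Mouse 2 had the highest level of all 5 members within the anti-CD40 group, and mouse 9 the lowest of 4, with Cxcl16 lowest in mouse 5. Among controls, mouse 4 was highest for Cxcl9, Cxcl10, Cxcl16 and Cxcr6, and mouse 12 was lowest for Cxcl10, Cxcl16 and Cxcr6 while it was highest for Cxcr3.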

How the data were processed

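RNA from bulk liver of 9 mice was made into QuantSeq 3′ libraries and sequenced by the authors on an Illumina NextSeq. The authors aligned reads to mm10 with STAR and computed FPKM with Cufflinks and CuffDiff, and the deposited FPKM table was used here, with its floor of 0.01 and 15 failed genes left out (24326 kept). The table's filter and annotation are not given in the sources used here. Mice were grouped by label. Values were tested as log2(FPKM + 0.1) in 13807 genes with a mean of at least 0.1 FPKM (limma 3.58.1, R 4.3.3, eBayes with trend, treatment as the only factor, 2-sided, Benjamini-Hochberg at 0.05), after a test on simulated data. Single values and log2 ratios were tested by exact permutation over 84 splits (numpy 2.4.6). Of 2273 low genes, 83.0% gave whole reads in every mouse within 0.04 reads, which gave the relative depth, but no count test was run. Recovered reads limit precision for Cxcr3 most. Genes named beside the members were all listed partners, up to 4 of each other pathway list with the smallest adjusted p, and the 3 nearest profiles. Others named from the lists (Cxcl2, Ccl25, Irf1, Irf3, Irf7, Il18, Pik3cg, Gnai2, Gnai3, Plcb3) and the neighbours Art3, Fyco1 and Zmynd15 were chosen after their values were seen. The members and lists were chosen with earlier results of these data known. Alternatives were 2 pseudocounts, 2 filters, 3 scalings, 3 variance settings and leaving out each mouse. Promoters came from RefSeq (GRCm38.p6). Results for some listed genes are not reported here.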

Additional observations from a re-analysis of the deposited data

Results flagged for a closer look

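In groups of 4 to 10 mice, a highest or lowest value was marked where its gap to the nearest other mouse, as a share of the group's whole range, was over Dixon's critical value for that number of mice. Among 21 groups tested, 2 were marked, where chance alone gives about 1.05. Control mouse 4 had 17.0 FPKM of Cxcl9, with the next control at 10.03 (gap share 0.674). The same mouse had 31.7 FPKM of Cxcl10, with the next control at 9.22 (gap share 0.775). Both ligands remained higher in anti-CD40 mice without it, by 5.65 and 3.65 on the log2 scale.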

How the results depend on the processing

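No paired analysis was possible because the groups share no mouse numbers. Cxcl9, Cxcl10, Cxcr3 and Cxcl16 were called higher under each alternative that tested them, and Cxcr3 was not tested at a mean of at least 1 FPKM. The Cxcr6 call was lost with no filter (0.73, limma adjusted p = 0.0621) and with quantile normalization (0.56, adjusted p = 0.0511), and its difference ranged from 0.61 to 0.81 when each mouse was left out. With the Saa genes left out and the mice rescaled, the Cxcr6 difference was 1.09 (limma adjusted p = 0.00371). Over all genes, 6230 were called, 3142 when a fold of at least 2 was also asked for, and 4875 to 6808 without 1 mouse. Leaving out the Saa genes, which encode abundant acute phase proteins, and rescaling moved the median of all genes from 0.0056 to 0.35. The share of calls that were higher went from 52.0% to 77.2%. At a mean of at least 1 FPKM, 4 T cell markers were left to test and all 4 were called. Under quantile normalization Ackr2 (-0.035) and Ccr9 (-0.067) turned negative. Leaving out the Saa genes and rescaling raised the axis partners called higher from 3 to 5, with Ackr2 and Ackr3 among them. With 2 anti-CD40 mice no ratio can go below an exact p of 0.0714. Without 1 mouse, the differences of log2 ratios ran from 2.00 to 2.49 for Cxcl9 to Cxcl10, 3.02 to 3.22 for Cxcl9 to Cxcl16, 0.65 to 1.23 for Cxcl10 to Cxcl16, 4.12 to 4.48 for Cxcl9 to Cxcr3, 1.64 to 2.48 for Cxcl10 to Cxcr3, 1.55 to 1.69 for Cxcl16 to Cxcr6, 0.35 to 0.70 for Cxcr3 to Cxcr6, -0.68 to -0.29 for Cxcr3 to the markers and -1.12 to -0.85 for Cxcr6 to the markers. A pseudocount of 1 FPKM turned Cxcr3 to Cxcr6 to -0.023 and gave -0.42 for Cxcr3 to the markers (exact permutation p = 0.0238) and -0.39 for Cxcr6 to the markers (exact p = 0.0714), and one of 0.01 FPKM gave 1.93 for Cxcl10 to Cxcr3 (exact p = 0.0714). The cause of the lost Cxcr6 calls and of the changes in ratios was not tested.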
